A study of Danio rerio with 12 samples.

Results

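Of the 31051 gene identifiers in the deposited table, 6 genes were followed across zebrafish embryos with pbx2/4 morpholinos, mutant prdm1, both or neither. They are atxn1b (ENSDARG00000060862), RBL2 (ENSDARG00000045636), loxl4 (ENSDARG00000025089), rspo1 (ENSDARG00000039957), RNF213 (ENSDARG00000033824) and lnx1 (ENSDARG00000043323). Each name matched 1 row of the table, with none left over. They were chosen by their large rises in count with pbx2/4 morpholinos, and the choice does not say in which of the 2 genotypes. Their differences between libraries with and without these morpholinos are therefore a description here and carry no test. Whole AB-strain embryos at 10 somites were profiled by RNA sequencing in 4 groups of 3 libraries. Double embryos were prdm1-/- and received pbx2/4 morpholinos. The pbx2/4 morphants were prdm1+/+ and received the same morpholinos. The prdm1 mutants were prdm1-/- and received a control morpholino, and controls were prdm1+/+ with that control morpholino. All 4 groups were thus injected as fertilised eggs, and each library came from embryos genotyped one by one and then combined, in numbers not given in the sources used here. Which prdm1 allele was used is not given either, and a morpholino lowers a protein without removing its gene.

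Pbx proteins are homeodomain transcription factors that bind DNA together with Hox, Meis and other partners, and in zebrafish pbx2 and pbx4 are the main family members active early in development. These genes are not known to form a pathway. atxn1b is a zebrafish counterpart of human ATXN1, whose protein, ataxin-1, binds the transcriptional repressor Capicua and carries an expanded glutamine tract in a human ataxia. RBL2 encodes p130, a retinoblastoma-family pocket protein that holds E2F target genes silent in resting cells. rspo1 encodes a secreted R-spondin, which strengthens Wnt signalling by removing the receptor-degrading ligases ZNRF3 and RNF43, and loxl4 encodes a lysyl oxidase-like enzyme that cross-links collagen and elastin outside the cell. RNF213 encodes a very large ubiquitin ligase with an ATPase core, linked in humans to moyamoya disease, and lnx1 a RING and PDZ-domain ubiquitin ligase known in mammals for binding Numb.

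Total counts ran between 9059663 and 17236848 per library, so that 1 count was worth 0.057 to 0.11 CPM (counts scaled to the size of the library). The column names fall into 3 sets, called A, B and C, each with 1 library of every group, and libraries of a set deviated together. All 12 embryo marker rows checked, among them sox2, myod1, tbx16, krt4 and gata1a, had counts in every library. Of the targeted genes, pbx2 RNA was 275 ± 41.8 CPM in double embryos and 58.2 ± 12.8 in prdm1 mutants (SD, n = 3 each), and pbx4 RNA 441 ± 75 against 323 ± 43.8. In pbx2/4 morphants and controls pbx2 RNA was 260 ± 35.5 and 57 ± 12.6 CPM, and pbx4 RNA 437 ± 43.1 and 329 ± 39.7. A further row, PBX2 (3 of 3), averaged 0.451 CPM in double embryos, 0.353 in morphants, 0.597 in prdm1 mutants and 0.149 in controls. prdm1a RNA was 227 ± 10.6 CPM in double embryos, 122 ± 10.7 in pbx2/4 morphants, 139 ± 6.08 in prdm1 mutants and 105 ± 9.39 in controls. Neither kind of value measures the loss of protein, so the labels were not checked by them. In whole embryos, a change in the number of cells that express a gene and a change in RNA per cell cannot be told apart.

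The pair of genes whose products act in the nucleus, atxn1b and RBL2, were abundant in every library with pbx2/4 morpholinos and scarce in every library without them. atxn1b was at 86.7, 62.2 and 41.5 CPM in the double libraries of sets A, B and C, and at 2.01, 11.1 and 2.58 CPM in the prdm1 mutant libraries. It was at 67.8, 60.6 and 51.8 CPM in pbx2/4 morphants, against 3.29, 11.9 and 4.97 CPM in controls. The lowest library with pbx2/4 morpholinos was 3.48 times the highest without them. A separation of these 6 libraries from the other 6 by any margin held for 2.56% of all genes tested, and the share with so wide a gap was not computed. Set B was the highest of the 3 in both groups with the control morpholino. RBL2 was at 146, 103 and 64.7 CPM in double embryos, against 18.7 CPM in the set B prdm1 mutant and 7.23 and 5.7 in sets A and C. In pbx2/4 morphants it was at 104, 123 and 83.3 CPM, against 8.12, 21.1 and 6.6 in controls. Again the groups were well apart, with the lowest morpholino library 3.07 times the highest other library. RBL2 held counts that were not whole in 3 of 12 libraries, and how those reads were divided is not given.

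Both genes for secreted proteins were low without pbx2/4 morpholinos. rspo1 was at 11.7, 9.21 and 9.37 CPM in double embryos, against 0.562, 1.78 and 0.464 CPM in prdm1 mutants, from 7 to 16 counts per mutant library. In pbx2/4 morphants it was at 7.87, 7.77 and 7.53 CPM, against 0.822, 1.38 and 0.629 in controls. Among the 6 genes, rspo1 had the most even level over the morphant libraries, with a coefficient of variation of 2.24%, and the widest gap, 4.23 times between the lowest library with pbx2/4 morpholinos and the highest without. loxl4 was at 5.13, 3.98 and 2.29 CPM in double embryos, against 0.321, 0.445 and 0.265 in prdm1 mutants, where each library held 4 counts. It was at 4.74, 4.13 and 3.08 CPM in pbx2/4 morphants, against 0.616, 0.573 and 0.252 in controls. Its libraries kept a single order of sets, A above B above C, in double embryos and in morphants, as did those of atxn1b.

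The ubiquitin ligase genes differed from each other in depth and in how evenly they moved. lnx1 was at 78.3, 66.2 and 67.8 CPM in double embryos, against 6.42, 23.3 and 6.96 in prdm1 mutants. It was at 61.2, 79.0 and 59.4 CPM in pbx2/4 morphants, against 5.96, 20.4 and 8.24 in controls. Its 6 libraries with pbx2/4 morpholinos varied least of all 6 genes (coefficient of variation 12.2%), while its 6 other libraries varied by 65.9%, with both set B libraries on top. RNF213 was at 4.17, 2.62 and 4.57 CPM in double embryos, against 0.401, 0.889 and 0.464 in prdm1 mutants. In pbx2/4 morphants it was at 1.52, 3.84 and 2.79 CPM, against 0.205, 0.688 and 0.377 in controls. It had the narrowest gap, 1.71 times, and 5 of its 12 counts were not whole. A row spelled rnf213 in lower case (ENSDARG00000075710) is another gene of this name and did not share the pattern: its levels were 4.03 to 12.1 CPM with pbx2/4 morpholinos and 3.49 to 10.9 CPM without.

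**Figure D1:**
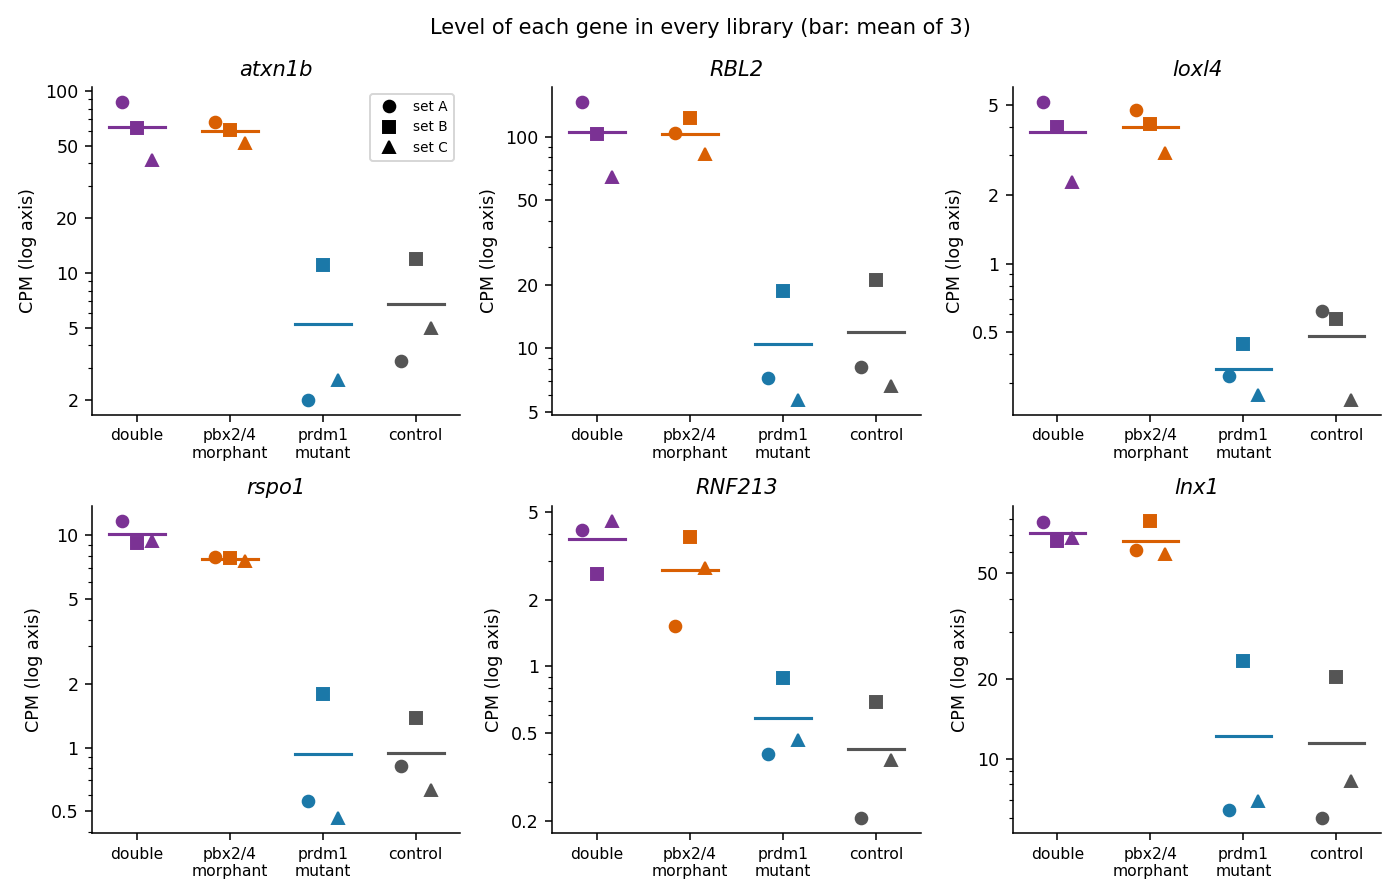
CPM on a log axis in each of the 12 libraries for the 6 genes, with double embryos, pbx2/4 morphants, prdm1 mutants and controls from left to right, marker shapes for sets A, B and C, and a bar at the mean of 3 libraries. For each gene every library with pbx2/4 morpholinos lies above every library without, as holds by any margin for 2.56% of all genes tested. The gap is narrowest for RNF213 (1.71 times). The set B squares of atxn1b, RBL2, rspo1, RNF213 and lnx1 top both groups with the control morpholino.

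In prdm1-/- embryos, set side by side as double embryos over prdm1 mutants, the 6 genes were 5.91 times (lnx1) to 12.7 times (atxn1b) as abundant with the pbx2/4 morpholinos. The log2 fold changes were 3.67 for atxn1b (SE 0.59), 3.34 for RBL2 (SE 0.51), 3.53 for rspo1 (SE 0.40) and 3.46 for loxl4 (SE 0.44). The ubiquitin ligase genes had the lower values, 2.75 for RNF213 (SE 0.45) and 2.56 for lnx1 (SE 0.49), and differences among the 6 were not tested. In this comparison 100 of the 18117 genes tested (0.552%) were called higher by edgeR at an adjusted p under 0.05, and 7.22% with the set as a block, from which nothing is read about the 6 genes, since these libraries may have served to choose them. atxn1b had the fifth highest fold change of all genes tested. For each gene the 3 double libraries lay above the 3 prdm1 mutant libraries, which held for 7.68% of all genes tested.

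All 6 passed the filter on low counts, which asked for 0.85 CPM in at least 3 libraries. loxl4, rspo1 and RNF213 reached that level in 0, 2 and 1 of the 6 libraries without pbx2/4 morpholinos, so they passed only through the groups in which they were high. The set B prdm1 mutant was the mutant library in which each of the 6 was highest. Without it the log2 fold change was 4.77 for atxn1b, 4.02 for RBL2, 4.28 for rspo1 and 3.40 for lnx1. For loxl4 the value stayed within 3.17 to 3.73 when any 1 of the 6 libraries was left out, and for RNF213 within 2.55 to 3.11.

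The difference was positive in each set for each gene. On log2 CPM with a prior count of 2, which pulls low genes such as loxl4 towards 0, the 18 differences between the double and the prdm1 mutant library of a set ran from 1.4 to 5.32. Set B gave the smallest value for atxn1b, RBL2, rspo1, RNF213 and lnx1, at 2.47, 2.45, 2.27, 1.4 and 1.5, while loxl4 was smallest in set C, at 2.52. The largest was atxn1b in set A, at 5.32, where the prdm1 mutant library had 25 counts and the double library 997.

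**Figure D2:**
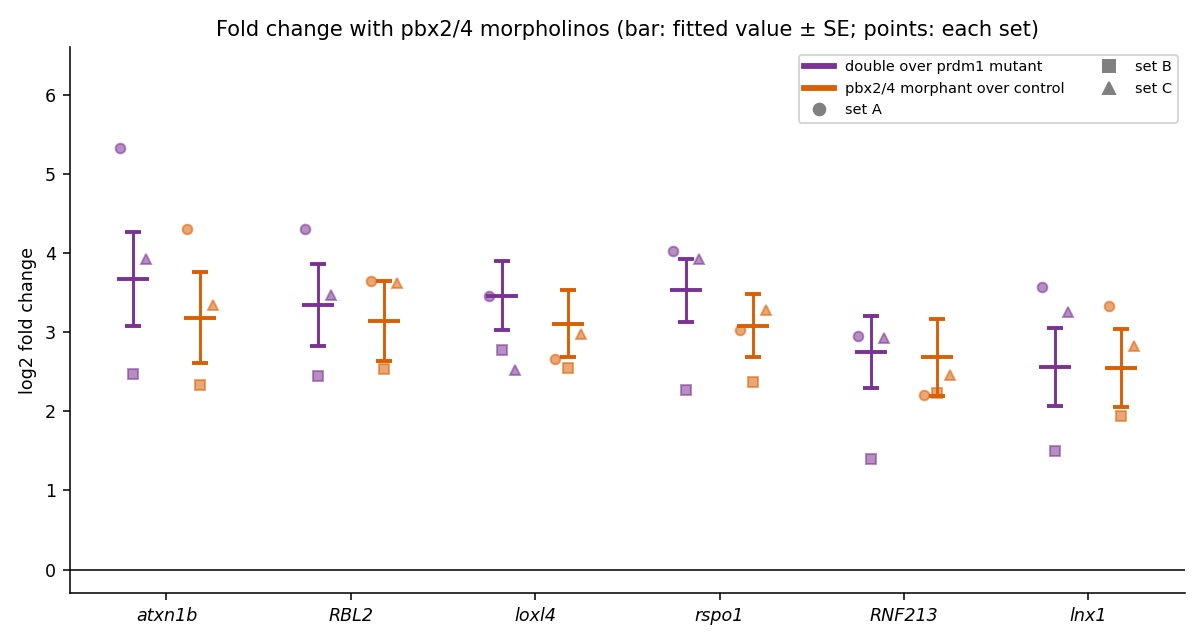
Log2 fold change with pbx2/4 morpholinos for each of the 6 genes, in double embryos over prdm1 mutants (left of each pair) and in pbx2/4 morphants over controls (right). Bars are fitted values ± SE, from 2.56 to 3.67 on the left and 2.55 to 3.19 on the right, and points are the differences within sets A, B and C, which are all above 0.

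In pbx2/4 morphants over controls the log2 fold changes were 3.19 for atxn1b (SE 0.57), 3.14 for RBL2 (SE 0.51), 3.11 for loxl4 (SE 0.42), 3.08 for rspo1 (SE 0.40), 2.69 for RNF213 (SE 0.49) and 2.55 for lnx1 (SE 0.49). Here too 0.552% of genes tested were called higher, and again nothing is read from it about the 6. These genes were not the 6 of highest fold change in morphants: they ranked between 5 and 24 of all genes tested. The authors' deposited table for this comparison, which gives control over treated, lists -3.24 for atxn1b and -2.61 for lnx1. For double embryos the authors' deposited table, again as control over treated, lists -3.51 for rspo1, -3.26 for atxn1b, -3.26 for RNF213, -3.20 for RBL2, -3.005 for loxl4 and -2.72 for lnx1. The 2 deposited comparisons share their control libraries.

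The prdm1-/- genotype with the control morpholino went with differences of mixed sign in these genes. In prdm1 mutants over controls the log2 fold changes ran from -0.43 for loxl4 (SE 0.55) and -0.41 for atxn1b (SE 0.60) to 0.43 for RNF213 (SE 0.58), and 7 of the 18 values within sets were positive. The mutant and control libraries overlapped for all 6 genes. These values rested on single libraries, above all those of set B. Without the set B mutant atxn1b was at -1.51, RBL2 at -0.86, rspo1 at -0.81, lnx1 at -0.76 and RNF213 at 0.08, and without the set B control they were at 0.24, 0.49, 0.28, 0.74 and 0.85. loxl4 was at -0.82 without the set C control. In double embryos over pbx2/4 morphants they ran from -0.08 for loxl4 (SE 0.33) to 0.50 for RNF213 (SE 0.38), with 0.38 for rspo1 (SE 0.32). Without the set A double library atxn1b, RBL2 and loxl4 were at -0.21, -0.31 and -0.36, and without the set C double library at 0.30, 0.26 and 0.20, while rspo1 stayed within 0.27 to 0.44 when any 1 library was left out. rspo1 was the 1 gene of the 6 whose groups did not overlap here, with 9.21 to 11.7 CPM in double embryos and 7.53 to 7.87 CPM in morphants, and every double library lay above every morphant library for 2.53% of all genes tested. Both comparisons reuse libraries that may have served to choose the genes, so neither was tested. The morpholino effect in prdm1-/- embryos minus that in prdm1+/+ embryos was 0.02 to 0.49 on the log2 scale for the 6 genes, with standard errors of 0.58 to 0.79. Without the set B control it was -0.16 for atxn1b, -0.48 for RBL2, -0.65 for lnx1 and -0.35 for RNF213, and without the set B mutant 1.59, 0.88, 0.85 and 0.42.

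The lower-case rnf213 row behaved differently from RNF213. It had 8.56 ± 3.40 CPM in double embryos and 7.42 ± 3.08 in prdm1 mutants (SD, n = 3 each), a log2 fold change of 0.21 (SE 0.35, edgeR adjusted p = 0.928). Its level differed more by genotype, by 0.85 in prdm1 mutants over controls (SE 0.36, edgeR adjusted p = 1.00, and 0.051 with the set as a block) and by 0.76 in double embryos over pbx2/4 morphants (SE 0.35, adjusted p = 1.00, and 0.0473 with the block). In these 2 comparisons 0.0828% and 0.0662% of genes tested were called higher without the block, and 0.491% and 0.707% with it. Of its 12 counts, 8 were not whole, so how its reads were divided with related loci is uncertain.

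Library set B stood apart in the groups with the control morpholino. Relative to the mean of sets A and C, the set B library was at 4.84 times for atxn1b, 3.49 times for lnx1, 3.47 times for rspo1, 2.89 times for RBL2, 2.06 times for RNF213 and 1.52 times for loxl4 in prdm1 mutants. In controls the ratios were 2.89, 2.87, 1.90, 2.87, 2.36 and 1.32, for the same genes in the same order. With pbx2/4 morpholinos the same ratio lay between 0.598 and 1.07 in double embryos and between 1.01 and 1.78 in morphants. Some genes of the DNA damage response were also higher in these libraries, to unequal degrees. phlda3, a stress-induced inhibitor of Akt, was at 17.8 CPM in the set B prdm1 mutant and 17.0 in the set B control, against 5.97 to 6.74 CPM in the other 4 libraries with the control morpholino. mdm2 was at 1.92 times the mean of sets A and C in prdm1 mutants and 1.67 times in controls, sesn1 at 1.56 and 1.28 times, and sesn3 at 1.03 and 1.15 times. The summed level of the 38 rows of a DNA damage response list was 3220 CPM in the set B mutant and 3000 in the set B control, against 1910 to 2170 CPM in those 4 libraries, and ccng1, a cyclin G1 gene, gave 445 to 1090 CPM of the sum in prdm1 mutants. The part of this response in the levels of the 6 genes was not tested.

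**Figure D3:**
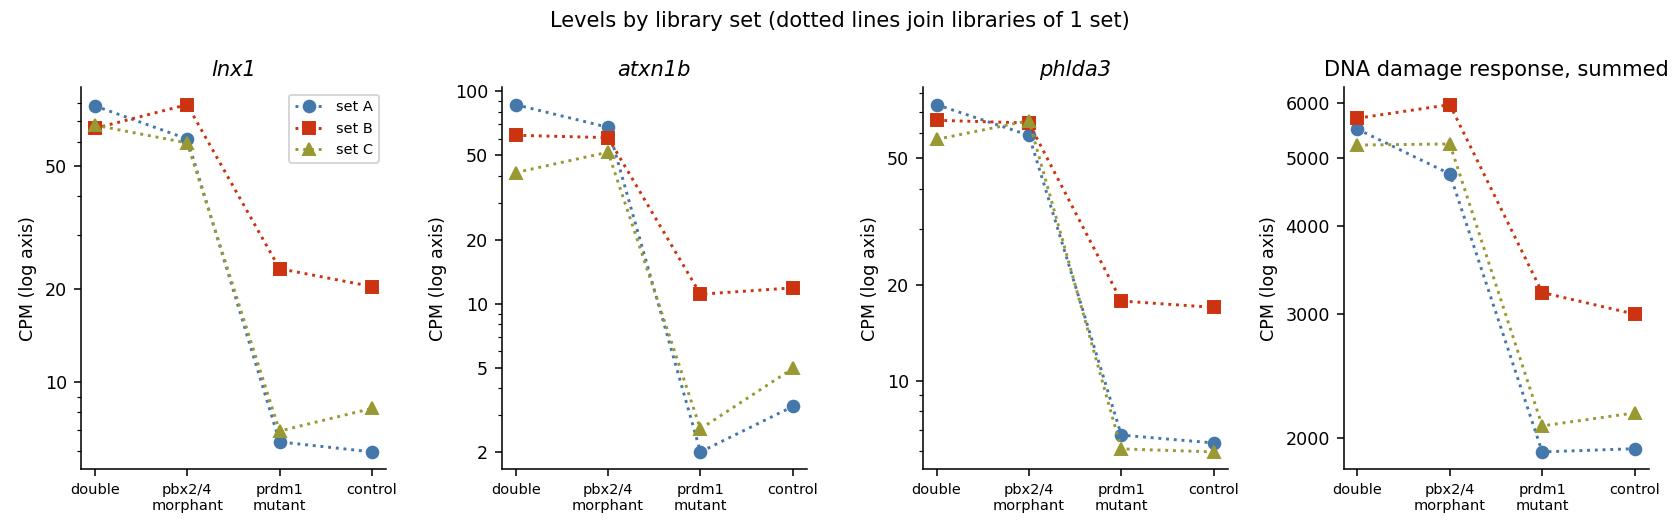
CPM on a log axis of lnx1, atxn1b, the damage-response gene phlda3 and the summed damage-response list, for the 4 groups from double embryos on the left to controls on the right, with dotted lines joining the libraries of a set. In both groups with the control morpholino set B is the highest (lnx1 at 23.3 and 20.4 CPM, phlda3 at 17.8 and 17.0), and with pbx2/4 morpholinos the 3 sets lie closer together.

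DNA damage and other stress switch on genes for cell cycle arrest, repair and cell death, and some morpholinos are known to set off this response in zebrafish embryos whatever gene they target. Of 33 tested genes on the DNA damage response list, 13 rose and 0 fell in double embryos over prdm1 mutants (18 and 0 with the set block). The background was 0.552% of genes higher and 0.811% lower without the block, and 7.22% and 8.98% with it. Its median change was 0.65 on the log2 scale, against 0.01 over all genes tested. Its summed level was 5220 to 5700 CPM in double embryos and 1910 to 3220 in prdm1 mutants, and no listed row was at 0 throughout. A large part of that sum was ccng1 alone, at 2240 to 2430 CPM in double embryos and 445 to 1090 in prdm1 mutants. mdm2, a ubiquitin ligase gene induced by DNA damage, had a log2 fold change of 1.69 (SE 0.26, adjusted p = 0.00716 by edgeR), phlda3 of 2.72 (SE 0.43, adjusted p = 0.00816), and the sestrin genes sesn1 and sesn3 of 1.49 and 1.06 (adjusted p = 0.00257 and 0.00229). The listed repair genes xpc, rrm2b, ddb2 and POLH were not called, at -0.33, -0.16, -0.04 and -0.02 (adjusted p = 0.487, 0.776, 0.975 and 0.99 by edgeR). With the set block they were not called either.

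In pbx2/4 morphants over controls 11 of the 33 rose and 0 fell (17 and 2 with the block), where 0.552% of all genes were higher and 0.883% lower without the block and 7.73% and 9.95% with it. The list's median was 0.59. phlda3 was at 63.1 ± 3.55 CPM in morphants and 9.77 ± 6.23 in controls (SD, n = 3 each). The list's summed level was 4750 to 5960 CPM in morphants and 1930 to 3000 in controls, of which ccng1 gave 1960 to 2660 and 448 to 1010 CPM. Whether the pbx2/4 morpholinos act on the 6 genes through the loss of Pbx or through this response cannot be told apart in this design. Earlier results of these data already showed the rise of these genes, so it is no independent evidence.

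The genes whose level ran most nearly in parallel with the 6 included several of that list. For each gene the 3 closest of all other tested genes were taken, by Pearson correlation of log2 CPM over the 12 libraries. Of the 18 places, 9 went to 5 genes of the damage-response list. mdm2 was closest to atxn1b (0.991) and to rspo1 (0.992) and among the closest to RBL2 (0.990). ccng1, the cyclin G1 gene, was closest to lnx1 (0.996), phlda3 was among the closest to RBL2, rspo1 and lnx1, and sesn1 to RNF213 (0.962). RNF169, whose product binds ubiquitin marks at DNA breaks, was closest to RBL2 (0.993). TNPO2, a nuclear import receptor gene, and jazf1a, a zinc-finger gene, were closest to loxl4 (0.985 and 0.981), and cited2, a p300-binding coregulator gene, to RNF213 (0.987). RBL2 was itself among the closest to atxn1b (0.987). The 12 libraries fall into 6 with and 6 without pbx2/4 morpholinos and share 3 sets, so these values mostly restate that separation and describe likeness alone.

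The levels of ccng1, taken as the gene closest to lnx1, are given as an example. It was at 2240, 2430 and 2330 CPM in double embryos, against 445, 1090 and 513 in prdm1 mutants. In pbx2/4 morphants it was at 1960, 2660 and 2380 CPM, against 448, 1010 and 548 in controls. As for lnx1, the set B libraries topped both groups with the control morpholino. The libraries with pbx2/4 morpholinos lay above those without, as for 2.56% of all genes tested. Because ccng1 was chosen by its correlation with lnx1 over these libraries, this shared pattern is no further evidence. mdm2 was at 284 to 343 CPM in double embryos and 291 to 304 in morphants, against 71.9 to 139 in prdm1 mutants and 79.4 to 133 in controls.

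Relatives and partners of the 6 genes were examined by lists. In double embryos over prdm1 mutants edgeR called 0 genes in either direction in the lists of R-spondins with their receptors and ligases (4 tested), Wnt target genes (12), lysyl oxidases (5), ataxin-1 relatives with Capicua and its targets (8), pocket proteins with E2F and MuvB subunits (19), LNX and Numb genes (3), interferon genes (9) and apoptosis machinery (15). The medians of these 8 lists lay between -0.17 and 0.35, against 0.01 over all genes. Some cell-death genes stood in the damage-response list instead, among them casp8, bbc3, baxa, baxb and pmaip1. There edgeR called casp8 (2.97, adjusted p = 0.0192) and bbc3 (2.69, adjusted p = 0.0129) higher, but not baxa, baxb or pmaip1 (0.85, 0.09 and 0.22). With the set as a block edgeR called baxa higher too (adjusted p = 0.000819), but not baxb or pmaip1 (adjusted p = 0.892 and 0.401). At an unadjusted p under 0.05 by edgeR the 8 lists held 0, 2, 0, 1, 0, 0, 1 and 3 higher genes. Lower genes numbered 0, 1, 0, 0, 5, 0, 0 and 0. The share of all genes at that threshold was not computed, so nothing is read from these counts. DESeq2 called 1 gene higher in the ataxin-1 list, 1 higher in the interferon list and 1 lower in the pocket protein list. Of the 18117 genes tested it called 212 higher and 359 lower. limma-voom called 0 in the 8 lists, against 106 higher and 161 lower over all genes. With the set as a block the counts were 0 in the R-spondin and lysyl oxidase lists, 3 higher and 3 lower among Wnt targets, 1 higher of 8 in the ataxin-1 list, 7 lower of 19 in the pocket protein list, 1 higher of 3 in the LNX and Numb list, 1 higher of 9 in the interferon list and 3 higher of 15 in the apoptosis list, where the background was 7.22% higher and 8.98% lower. In pbx2/4 morphants over controls edgeR called 1 gene in these lists, wnt8a (ENSDARG00000052910), a Wnt ligand gene of the tailbud, which rose by 0.69 (SE 0.13, adjusted p = 0.0211). A second row of that name, ENSDARG00000078507, had 0.67 (SE 0.16, adjusted p = 0.0707), and reads may be split between them. With the block the 2 Wnt target rows higher in morphants were both named wnt8a, and 3 Wnt targets were lower. The 3 rows higher with the block in double embryos over prdm1 mutants were those wnt8a rows and bambia. The ataxin-1 list had 2 higher and 1 lower in morphants with the block. The pocket protein list had 6 lower, the interferon list 1 higher, the apoptosis list 2 higher and 1 lower, and the remaining lists 0. The background was 0.552% higher and 0.883% lower without the block, and 7.73% and 9.95% with it.

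The gene of smallest p was examined in lists without a call. CIC (2 of 2), a row for Capicua, the partner of ataxin-1, was at 101, 70.4 and 45.0 CPM in double embryos, against 40.7, 32.7 and 27.0 in prdm1 mutants. Every double library lay above every prdm1 mutant library, as for 7.68% of all genes tested. The log2 fold change was 1.11 (SE 0.27, edgeR adjusted p = 0.0763, and 3.74e-05 with the set block). It was 1.05 in morphants over controls (adjusted p = 0.0927, and 4.92e-05 with the block). The other Capicua row, cic, had -0.01 in double embryos over prdm1 mutants and 0.16 in morphants over controls (edgeR adjusted p = 0.995 and 0.803). isg15, an interferon-stimulated gene for a ubiquitin-like protein, had 42, 81 and 53 counts in double embryos, against 5, 10 and 1 in prdm1 mutants. Its log2 fold change was 3.39 (SE 0.81, adjusted p = 0.0671, and 0.0018 with the block), and the set C control, at 52 counts, reached the level of the double libraries. E2F3, an activating E2F gene, had the smallest p of the pocket protein list, with a log2 fold change of -0.38 (SE 0.11, adjusted p = 0.131, and 0.00167 with the block). casp9, the gene of an initiator caspase, had 0.98 (SE 0.28, adjusted p = 0.139, and 0.00269 with the block). numbl, a Numb-like gene and relative of the partner of lnx1, had 0.41 (SE 0.39, adjusted p = 0.813, and 0.0298 with the block), and loxl2a, a relative of loxl4, had -0.47 (SE 0.32, adjusted p = 0.688). In morphants over controls the genes of smallest p were BAD (2 of 2) at 0.82, loxl5b at 0.20 and e2f4 at -0.31 (adjusted p = 0.243, 0.659 and 0.271).

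Among partners of rspo1, ZNRF3, a ligase that R-spondins remove from the membrane, had a log2 fold change of -0.24 in double embryos over prdm1 mutants (SE 0.15, edgeR adjusted p = 0.638), and the receptor gene LGR4 -0.09 (SE 0.19, adjusted p = 0.954). The related ligand genes RSPO2 and rspo3 had -0.56 and 0.16 (adjusted p = 0.436 and 0.917). axin2 and lef1, standard readouts of Wnt activity, had -0.16 and 0.13 (adjusted p = 0.756 and 0.789, and 0.306 and 0.281 with the block). The Wnt targets tcf7 and nkd1 had -0.36 and -0.25 (adjusted p = 0.547 and 0.519, and 0.0169 and 0.0222 with the block). In morphants over controls they had -0.53 and -0.35 (adjusted p = 0.269 and 0.27, and 0.00239 and 0.00355 with the block). Both wnt8a rows and bambia went the other way in double embryos over prdm1 mutants. They had 0.42, 0.40 and 0.23 (edgeR adjusted p = 0.168, 0.361 and 0.679, and 0.0104, 0.0235 and 0.0289 with the block). ccnd1, the cyclin D1 gene and a further Wnt target, had -0.36 (SE 0.11, adjusted p = 0.163, and 0.000115 with the set block). Whether rspo1 RNA changed Wnt signalling was not measured.

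**Figure D4:**
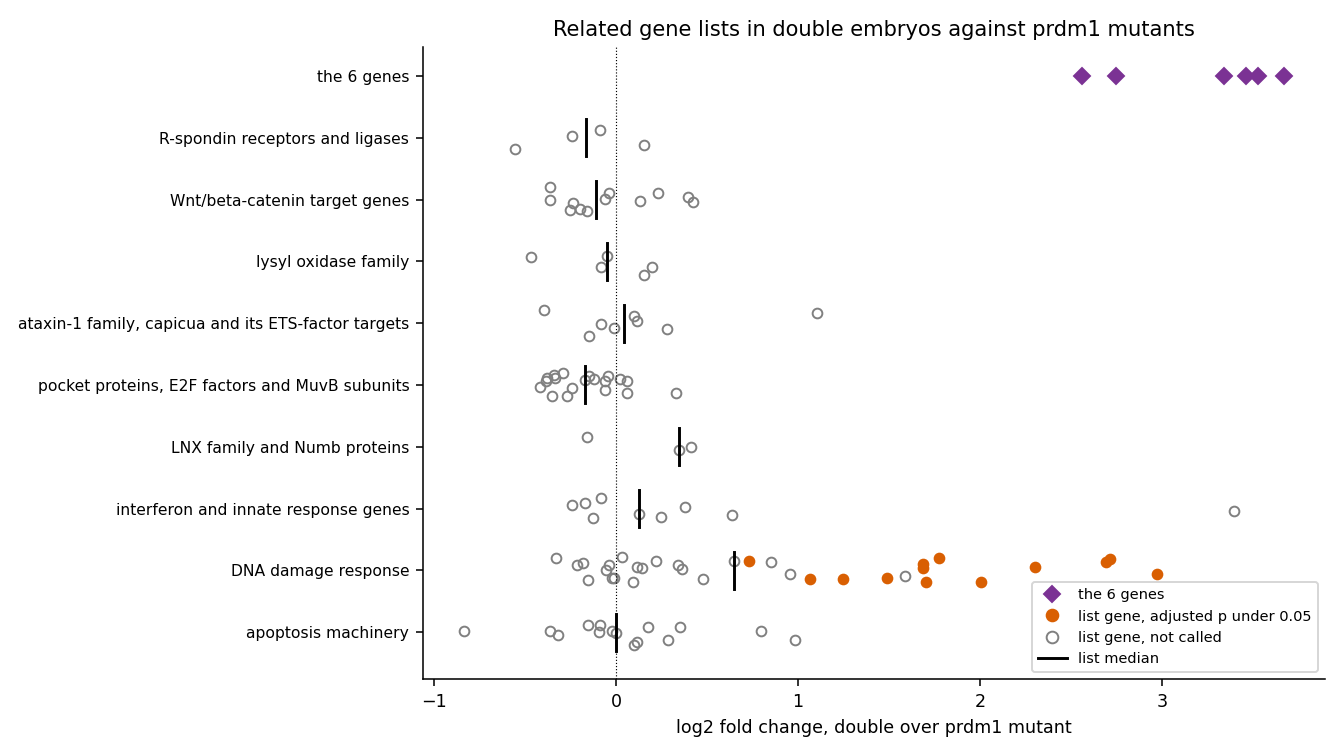
Log2 fold change in double embryos over prdm1 mutants of the 6 genes (diamonds) and of the tested genes of 9 lists (circles, filled where edgeR's adjusted p was under 0.05), with a bar at each list's median. The 6 genes lie between 2.56 and 3.67, the 13 filled circles all belong to the damage-response list, and the medians of the other lists lie between -0.17 and 0.35.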

How the data were processed

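The deposited values are estimated counts per gene, not normalised, in 12 columns: 13.7% were not whole (tolerance 1e-06). They were rounded, and the design, which assumed counts, was otherwise kept. The submitters' processing notes list TopHat 1.4, edgeR and Zv9. The way of counting reads, and whether strand was used, are not stated. The authors also deposited tables of their comparisons, with a p-value and a log2 fold change per gene, control over treated (read as log2 from a slope of 1.005 to 1.009 on the changes computed here, sign reversed).

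Quasi-likelihood F tests of edgeR 4.0.16 (R 4.3.3) were fitted to the 4 groups together, with TMM scaling and filterByExpr, which kept 18117 genes and left 8 residual degrees of freedom, and p-values were adjusted by Benjamini-Hochberg over all of them. Each SE was taken from F, as the size of the log2 change over its root. Alternatives used DESeq2 1.42.0 and limma 3.58.1, other scalings and filters, and left-out libraries. No column carries a replicate number. Sets A, B and C follow the form of the column names. Deviations from group means correlated at 0.448 to 0.669 within sets (18 pairs), so the set was the block. Between sets the correlations were -0.483 to -0.0299 (36 pairs). Taking deviations from the mean of each group makes those tend to be negative, so they are no separate evidence for the sets. The series text gives 3 independent collections of eggs, and whether sets A to C are these is not stated. Libraries of 1 group differed by a chi-square per gene of at least 11.8, so none were merged.

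The 6 genes and the lists were chosen with earlier results of these data known. The test planned for the 6 genes in double embryos over prdm1 mutants is not read, since the choice may have used those libraries. From each list up to 4 called genes were named by smallest p, or the gene of smallest p where none was called. Likeness genes are the 3 of highest correlation. LGR4, rspo3, axin2, lef1, tcf7, nkd1, bambia, cic, casp8, bbc3, baxa, baxb, pmaip1, xpc, rrm2b, ddb2 and POLH were named after their values were seen. No sequences are printed, and positions were not used here beyond gene order in the RefSeq table for GRCz12tu. Some genes are not reported here.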

Additional observations from a re-analysis of the deposited data

How the results depend on the processing

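In double embryos over prdm1 mutants the 6 log2 fold changes stayed positive in all 21 alternatives each, from 2.18 to 4.78. As a property of the fits, and no test of the genes, edgeR counted 6 of 6 among its calls, as did other scalings and filters, DESeq2, limma-voom, floored counts, the replicate block, and fits without set B. With the 2 groups alone it counted 5, without 1 library 2 to 6, and without set A or C 0 (6 with the block). Over all genes tested 0.552% were called higher in the main fit and 7.22% with the block. DESeq2 called 212 genes higher, limma-voom 106, and edgeR with the 2 groups alone 46. With other scalings and filters and with floored counts edgeR called 94 to 108. Without 1 library 30 to 90 genes were called higher, without set B 74, and without set A or C 0. The 6 genes were chosen for rises of this kind, and loxl4, rspo1 and RNF213 passed the main filter only through the groups with pbx2/4 morpholinos. Nothing is therefore read about the 6 from these counts. The lower-case rnf213 row turned to -0.0156 without the set C mutant and -0.126 without the set B double library, uncalled throughout, within -0.126 to 0.576 without 1 library.

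Counts of genes depended on the fit. In double embryos over prdm1 mutants, 100 higher and 147 lower became 212 and 359 with DESeq2, 1308 and 1627 with the block, and 46 and 49 with the 2 groups alone. They became 30 to 90 and 42 to 106 without 1 library, 0 and 1 without set A (619 and 739 at an unadjusted p under 0.05), 79 lower without set B, and 0 and 0 without set C (512 and 740 unadjusted). With the block they were 338 and 612 without set A, 1123 and 1445 without set B, and 556 and 893 without set C. In morphants over controls, 100 and 160 became 207 and 352, 1401 and 1803, and 56 and 64 in the same fits, 23 to 74 and 55 to 95 without 1 library, 0 and 1 without set A (711 and 925 unadjusted), 59 and 49 without set B, and 0 and 0 without set C (511 and 698 unadjusted). With the block they were 531 and 892, 1103 and 1461, and 607 and 875 without sets A, B and C. The cause was not tested. Fits without a set had fewer samples.

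Of the 18 closest-gene places, 5 kept their gene after set means were removed and 3 by Spearman correlation, though the named genes still correlated at 0.972 to 0.998 and 0.825 to 0.972. loxl4, at 4 counts per mutant library, and RNF213 are limited by depth. Pool sizes are not stated.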

Other observations

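Genes next to the 6 on the chromosome, by gene order in the RefSeq table for GRCz12tu, gave 4 tested neighbours. They lie beside atxn1b, loxl4, rspo1 and lnx1, while no neighbour of RBL2 was tested and none was obtained for RNF213. mylipb, beside atxn1b, had a log2 fold change of 0.71 in double embryos over prdm1 mutants (edgeR adjusted p = 0.214, and 0.00755 with the set block). gsx2, a homeobox gene beside lnx1, had -0.39 (adjusted p = 0.824, and 0.368 with the block). gnl2, beside rspo1, had -0.04 (adjusted p = 0.971, and 0.659 with the block), and zgc:123010, beside loxl4, -0.24 (adjusted p = 0.462, and 0.0718 with the block).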
